A study of Mus musculus with 14 samples.

Results

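Dimethylation of histone H3 at lysine 4 (H3K4me2) was compared between mouse embryonic stem cells given 4-hydroxytamoxifen (4-OHT) to delete Mll1 and the same line left untreated. The comparison uses 2 of the 14 libraries of the study, 1 untreated and 1 treated, and the peak list called in each. Both cultures were blastocyst-derived C57BL/6J cells of genotype Mll1fl/fl; Cre-ER TM, so the untreated cells carried the floxed alleles and the inducible recombinase as well. They grew feeder-free on Matrigel with leukemia inhibitory factor, 5% serum and 15% serum replacement, and the treated culture had received 5 µM 4-OHT over 9 days and 3 passages. The fixative was 1% paraformaldehyde, left on for 10 minutes, and each precipitation took 2 µg of antibody. A culture given 4-OHT without the floxed alleles was not analysed here, so deletion of Mll1 and exposure to 4-OHT with active Cre cannot be told apart. The remaining peak lists of the study (H3K4me1 and H3K4me3 of both cultures, Mll1 in untreated cells and H3K4me2 after the inhibitor MM-401) were used only beside the H3K4me2 results.

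Mll1, also called Kmt2a, is a histone methyltransferase that works in a complex with Wdr5, Rbbp5, Ash2l and Dpy30, and belongs to a family that includes Mll2 (Kmt2b), Mll3 and Mll4 (Kmt2c and Kmt2d) and the Set1 enzymes. H3K4me2 marks both gene starts, where it flanks the trimethylated nucleosomes, and enhancers, where it lies together with monomethylation. Hox genes, which pattern the body axis, are the textbook targets of Mll1.

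The untreated library held 40.1 M tags after removal of duplicates and the 4-OHT library 48.6 M, 121% as many (M stands for 1000000), and their inputs held 36.6 and 55.0 M. Levels are given as tags in peaks per M filtered tags of the library. Of these tags, 71.3% lay in peaks in the untreated and 77.8% in the 4-OHT library. All 8 stem cell markers examined, Pou5f1, Nanog and Sox2 among them, had H3K4me2 at a gene end in both lists, with summed levels of 759 and 839 tags per M. Among the markers of other cells, 3 of 7 fibroblast, 2 of 4 blood, 3 of 3 neural, 2 of 3 primitive endoderm and 2 of 3 trophectoderm genes had peaks, the same numbers in both lists. Those with peaks were Col1a1, Col1a2 and Thy1 of the fibroblast list and Spi1 and Ikzf1 of the blood list, among others. The fibroblast genes Col3a1, Postn, Dcn and Lum, and Ptprc and Gata1 of blood, had none in either. The peak lists do not measure the deletion itself: at the outer ends of Kmt2a the untreated library held 52.6 and the 4-OHT library 51.2 tags per M. In bulk chromatin, fewer cells with a mark and less of it per cell cannot be told apart. With 1 library per culture there is no replicate and no test. Intervals are 95% and cover counting error only.

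Most H3K4me2 regions were in both lists, and the 4-OHT list was the longer one. On the 19 autosomes and X, 89523 untreated and 98887 4-OHT peaks merged into 103260 regions, of which 79496 held peaks of both lists. A further 5765 regions held an untreated peak only, 6.76% of the regions with an untreated peak. The 4-OHT list alone accounted for 17999 regions, 18.5% of the regions with a 4-OHT peak. With the 4-OHT list shortened to as many peaks as the untreated one these counts were 8654 and 11756, and with at least 50 tags in the higher library they were 2339 and 11934. Gene ends, meaning 1 kb on either side of the outermost start and end of a protein-coding gene, differed least between the lists. There 1.47% of untreated regions (261 of 17797, interval 1.30 to 1.65%) had no 4-OHT peak and 5.17% of 4-OHT regions (957 of 18493, 4.86 to 5.50%) had no untreated peak. At over 100 kb from any gene end these shares were 10.4% and 22.4%.

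**Figure D1:**
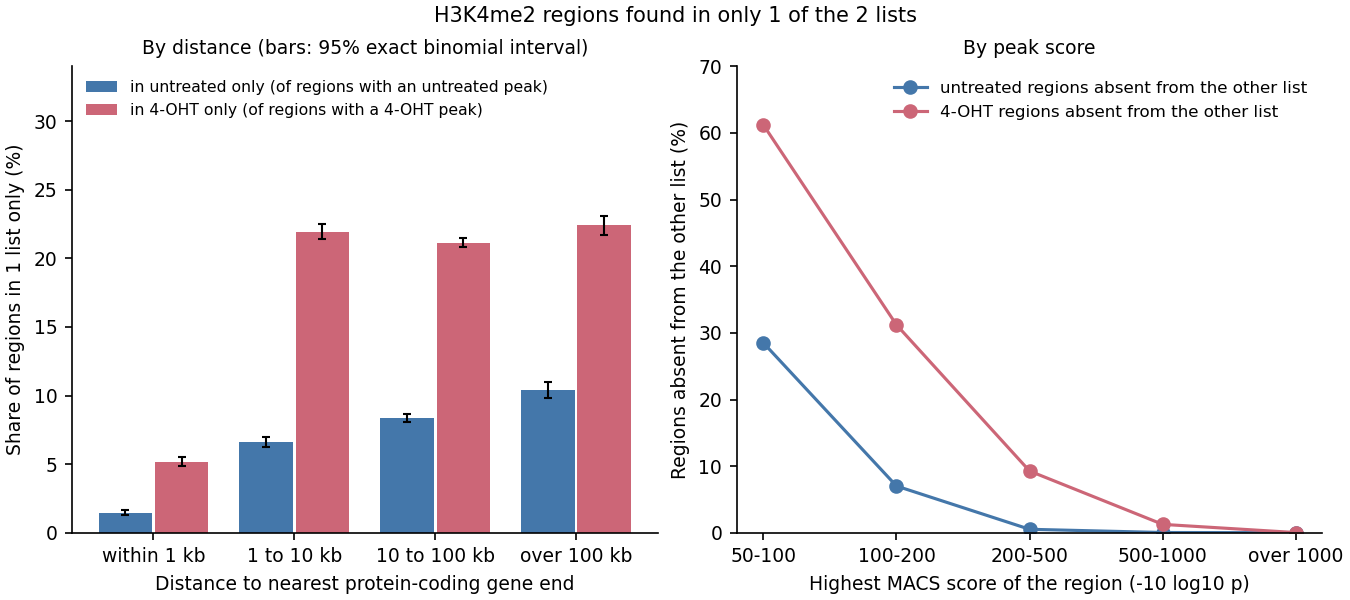
Shares of H3K4me2 regions found in 1 list only, by distance to the nearest protein-coding gene end (left, bars with 95% exact binomial intervals) and by the highest score of the region (right, points joined by lines). The 4-OHT-only share exceeds the untreated-only share in each distance class, and both shares fall to under 1.3% for scores of 500 and over.

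The regions in 1 list only were weak. Untreated-only regions had a median of 47 tags over 975 bp, 4-OHT-only regions 59 tags over 1026 bp, and shared regions 150 and 193 tags in the 2 libraries. The score of a peak is -10 times log10 of the caller's p, with a lowest value of 50. Of the untreated regions with a score of 50 to 100, 28.5% were absent from the 4-OHT list, against 0.532% at 200 to 500. Of the 4-OHT regions, 61.2% of those at 50 to 100 and 9.27% of those at 200 to 500 were absent from the untreated list. In percentage points the 2 lists differed most at scores of 50 to 100. At 500 to 1000 the absent shares were 0.0475% of untreated and 1.27% of 4-OHT regions. The part of depth in the 4-OHT-only count was not tested. Only 101 untreated-only regions held 100 tags or more, against 2790 4-OHT-only regions.

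Most 4-OHT-only regions already carried H3K4me1 in the untreated cells. An untreated H3K4me1 peak overlapped 71.1% of them and a 4-OHT H3K4me1 peak 83.6%, against 87.5% and 90.0% of shared regions. H3K4me3 was rare there, with an untreated peak at 2.80% and a 4-OHT peak at 4.75%, against 59.2% and 61.6% of shared regions. Of the 4-OHT-only regions, 55.9% lay within 5 kb of a shared region. Untreated-only regions lay within 5 kb of one in 43.7% of cases, and 68.7% of them overlapped an untreated H3K4me1 peak. How often a shared region lies within 5 kb of another was not computed.

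At gene starts the CG content of the promoter went with whether H3K4me2 was in both lists. RefSeq promoter windows of 300 bases (250 before to 50 after the start, GRCm38.p6) were at hand for 17274 of the 21631 genes. The motif CG, which reads the same on both strands, is in 95.5% of the 21045 windows. Its median number per window was 20 in the 14870 windows over a shared region, 4 in the 119 over a 4-OHT-only region, 5 in the 72 over an untreated-only region and 2 in the 5984 with no H3K4me2 region. Of windows with 20 to 29 CG, 99.3% lay in a shared region, and of those with 0 to 4 CG 16.9% did. The GC box GGGCGG on either strand, which itself holds a CG, was in 46.7% of all windows, in 63.5% of those over shared, 16.8% of those over 4-OHT-only and 16.7% of those over untreated-only regions. These cases are shown by the 250 bases before the start, 5′ to 3′, with each CG in capitals. Pou5f1, the stem cell factor Oct4, stands for shared regions of strong signal. Fcer1g, a subunit of immunoglobulin receptors of immune cells, is the strongest gene of the 4-OHT list only. Cryba1, a crystallin of the eye lens, and Myl3, a light chain of heart and slow muscle myosin, have the highest and the lowest ratio among genes with peaks in both lists. Jarid2, a Polycomb cofactor, and Coil, which encodes coilin of the Cajal body, are CG-rich starts that the 4-OHT list lacks.
Pou5f1 (chr17:35505782-35506031, plus strand, 8 CG, both lists): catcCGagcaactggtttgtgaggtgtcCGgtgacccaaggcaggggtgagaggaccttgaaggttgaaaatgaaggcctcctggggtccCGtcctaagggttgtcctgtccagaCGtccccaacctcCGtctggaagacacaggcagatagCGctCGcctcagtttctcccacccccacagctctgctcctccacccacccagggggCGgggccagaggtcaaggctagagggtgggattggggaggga
Fcer1g (chr1:171234350-171234599, minus strand, 5 CG, 4-OHT list only): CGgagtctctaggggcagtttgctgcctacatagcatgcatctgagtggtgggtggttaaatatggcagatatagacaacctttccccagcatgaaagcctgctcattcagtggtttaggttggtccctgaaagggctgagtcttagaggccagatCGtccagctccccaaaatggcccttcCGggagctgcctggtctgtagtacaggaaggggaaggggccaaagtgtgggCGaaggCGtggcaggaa
Cryba1 (chr11:77725294-77725543, minus strand, 3 CG, both lists): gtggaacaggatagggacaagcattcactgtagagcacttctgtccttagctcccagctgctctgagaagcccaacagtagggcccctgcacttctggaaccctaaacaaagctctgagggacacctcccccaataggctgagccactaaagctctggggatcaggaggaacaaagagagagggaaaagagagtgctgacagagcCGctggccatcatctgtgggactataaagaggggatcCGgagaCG
Myl3 (chr9:110763428-110763677, plus strand, 1 CG, both lists): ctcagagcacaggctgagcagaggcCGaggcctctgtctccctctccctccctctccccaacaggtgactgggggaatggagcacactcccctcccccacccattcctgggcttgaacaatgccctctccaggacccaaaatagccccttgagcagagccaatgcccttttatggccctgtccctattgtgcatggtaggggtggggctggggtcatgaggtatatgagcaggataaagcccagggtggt
Jarid2 (chr13:44730524-44730773, plus strand, 23 CG, untreated list only): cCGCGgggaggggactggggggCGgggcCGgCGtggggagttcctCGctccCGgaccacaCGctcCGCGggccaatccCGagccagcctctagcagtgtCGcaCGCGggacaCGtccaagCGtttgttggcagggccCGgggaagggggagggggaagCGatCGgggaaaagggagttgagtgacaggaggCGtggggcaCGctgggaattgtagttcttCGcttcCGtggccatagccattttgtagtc
Coil (chr11:88973685-88973934, plus strand, 16 CG, untreated list only): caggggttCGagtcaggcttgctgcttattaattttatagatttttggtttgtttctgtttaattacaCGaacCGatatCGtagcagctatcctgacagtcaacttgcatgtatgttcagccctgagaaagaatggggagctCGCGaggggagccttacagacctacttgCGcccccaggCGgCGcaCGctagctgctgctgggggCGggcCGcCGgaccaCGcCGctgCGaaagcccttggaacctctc

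The amount of H3K4me2 at shared regions was nearly the same in the 2 libraries. The median log2 ratio of tags per M (4-OHT over untreated) was -0.0021 at the 17536 shared regions within 1 kb of a gene end, with median levels of 18.5 and 18.4 tags per M. It was -0.0016 at the 43651 regions over 10 kb away, with 2.80 and 2.90 tags per M. Scaling each library to its tags in peaks in place of its filtered tags lowers every log2 ratio by 0.125. The genes below are therefore also set against the median of all genes. That scaling lowers this median by the same amount, so the place of a gene relative to it does not change. The spread was narrower at gene ends, where the central 90% of ratios ran from -0.38 to 0.50, than over 10 kb away, where it ran from -0.68 to 0.89.

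**Figure D2:**
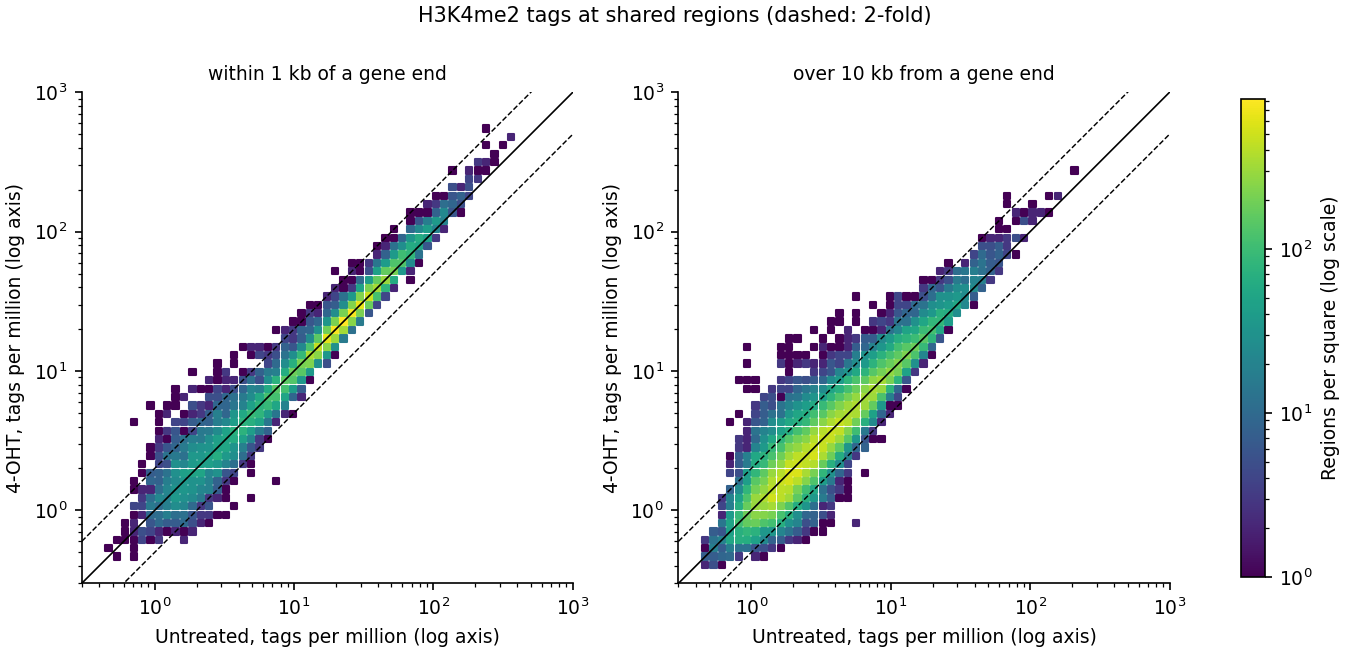
H3K4me2 level of shared regions, untreated (x) against 4-OHT (y), in tags per M filtered tags on log axes. Colour gives the number of regions per square. Gene-end regions (left) lie along the line of equal level, while distal regions (right) spread more widely at low levels and more squares lie above the upper 2-fold line than under the lower one.

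Regions at least 2-fold higher after 4-OHT outnumbered those at least 2-fold lower. The higher set held 2488 regions, 3.13% of the shared ones, and the lower set 822, 1.03%. Higher regions were thus 75.2% of both sets together, or 55.4% (1711 and 1377) with scaling to tags in peaks. Just under the threshold, at log2 differences of 0.9 to 1, lay 813 higher and 418 lower regions, and just over it, at 1 to 1.1, lay 644 and 268. Tags and width differed together: the higher set had a median of 76 tags over 1368 bp in untreated cells and 241 tags over 2647 bp after 4-OHT. The lower set had 97 tags over 1483 bp and then 50 tags over 910 bp. In tags per kb of peak, 11 regions were 2-fold higher and 14 were 2-fold lower. A called peak can widen as its signal grows, so extent and density are not separate measures here. Both sets were mostly distal, with 64.1% and 69.3% of their regions over 10 kb from a gene end.

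The trimethyl lists, from other precipitations of the same cultures, differed at these regions in the same direction as H3K4me2. H3K4me3 peaks overlapped 8.64% of the 2-fold higher regions in untreated cells and 33.5% after 4-OHT. The 2-fold lower regions had H3K4me3 at 25.3% before and 14.5% after. Of all shared regions, 59.2% and 61.6% had it. Seen from the trimethyl side, the 5337 shared regions with H3K4me3 in the 4-OHT list only had a median H3K4me2 log2 ratio of 0.36, and the 3434 with H3K4me3 in the untreated list only had -0.26. The 43653 regions with H3K4me3 in both lists stood at -0.022 and the 27072 with it in neither at 0.067. H3K4me1 overlapped 98.3% of the 2-fold higher regions in untreated cells and 94.7% after 4-OHT. The 2-fold lower regions had it at 86.7% and 86.5%, and all shared regions at 87.5% and 90.0%. Monomethylation in both cultures was thus common to most regions of either set.

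Regions that overlapped an Mll1 peak in untreated cells had slightly higher H3K4me2 after 4-OHT than other regions. The Mll1 list is sparse, with 3983 peaks that hold 0.277% of its tags, and 2545 shared regions overlapped one. Their median log2 ratio was 0.085, against -0.0038 for the other 76951. At gene ends the 2 values were 0.061 and -0.0071, and at 10 to 100 kb 0.18 and 0.0036. Mll1-overlapping regions are strong ones, with a median of 21.7 tags per M against 3.62 in the untreated library. Among the strongest class of regions (medians of 68.9 and 60.1 tags per M in untreated cells), the log2 medians were 0.17 with and 0.12 without an Mll1 peak. Among regions with a mean of 500 to 1000 tags they were 0.051 and -0.0022. In tags per kb of peak the medians over all regions were 0.0033 with and -0.022 without an Mll1 peak.

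For genes, the tags of all regions within 1 kb of either end were summed. Of 21631 protein-coding genes, 16009 had H3K4me2 in both lists, with a median log2 ratio of 0.0056. Genes at least 1.5-fold higher numbered 206 (1.29%) and genes at least 1.5-fold lower 193 (1.21%). At 2-fold there were 34 (0.212%) and 35 (0.219%). The ratio moved with the level: genes with 10 to 20 tags per M had a median log2 ratio of -0.033, those with 50 to 100 had 0.080 and those with over 100 had 0.17, with 91.1% of the latter above 0. It also went with the division of the signal into peaks. At 1696 genes 2 or more untreated peaks lay under 1 longer 4-OHT peak, and these had a median of 0.17, against -0.0082 for the others. The reverse, 1 untreated peak with 2 or more 4-OHT peaks, occurred at 369 genes. Division and amount of signal were not told apart. Level and joined peaks are given beside the gene groups, and their part in the groups' ratios was not tested.

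Per M filtered tags the core pluripotency genes had more H3K4me2 in the 4-OHT library, by less than 1.5-fold. In 12 of 14 the counting interval lay above 0, against 8 of 15 genes of the housekeeping list. This share was not computed for all genes, and counting intervals are narrow at strong domains. All 14 of them lay above the median of all genes (13 of 14 per kb of peak), as 50% of all genes do by definition, with a median log2 ratio of 0.15 and a range from 0.012 to 0.49. With scaling to tags in peaks the list median was 0.030, that of all genes was -0.12, and Pou5f1 stood at 0.013. Dppa2, an early-embryo chromatin factor, stood at 59.7 tags per M without and 83.9 with 4-OHT (log2 0.49, 0.42 to 0.56). L1td1, an RNA-binding protein derived from a transposon, had 83.6 and 110 (log2 0.40). Utf1 had 102 and 121. The central factors differed less: Pou5f1 had 134 and 147 tags per M, Sox2 174 and 191, and Nanog 110 and 112 with an interval that includes 0 (-0.02 to 0.09) and a log2 ratio of -0.090 with scaling to tags in peaks. These are strong domains with a median of 96.6 tags per M, a level at which most genes were above 0. In 9 of the 14 an untreated domain of several peaks was 1 peak after 4-OHT. The other 5 had a median of 0.13.

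Naive and formative genes were less uniform. Of 16 naive genes, 10 lay above the median of all genes and 1 was 1.5-fold higher. Tet2, which oxidises methylcytosine, had 89.9 and 118 tags per M, and Dppa5a 76.2 and 103. Klf4 had 74.8 and 71.5 (log2 -0.064), and Dppa3 stood at log2 -0.10, both with intervals that include 0. Esrrb passed 1.5-fold from a weak outer end, with 85 tags over 1608 bp and 210 tags over 3597 bp, and per kb of peak its log2 ratio was -0.14. Of 12 formative genes, 9 lay above the all-gene median. The fibroblast growth factor effectors Etv4 (91.4 and 135, log2 0.56) and Etv5 (96.7 and 117) led them, while Zic2 was lower (115 and 101, log2 -0.19).

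The Hox clusters divided by chromosome. Over all 39 Hox genes the median log2 ratio was -0.063 and 15 lay above 0, with none past 1.5-fold. Of all genes 51.7% lay above 0. That share was 40.3% at genes with 10 to 20 tags per M and 74.0% at those with 50 to 100. In the HoxA cluster 1 of 11 genes was above 0 (median -0.16), and in HoxB 1 of 10 (median -0.12). In HoxC 4 of 9 were above 0 (median -0.014), and in HoxD all 9 were (median 0.096). Neighbouring Hox genes share regions, so the clusters were also summed over their distinct regions. HoxA went from 380 to 339 tags per M over 16 regions (log2 -0.16, -0.20 to -0.13), with 2 of 16 higher. HoxB went from 273 to 254 over 12 regions (log2 -0.11), with 1 higher. HoxC stood at 208 and 207. HoxD went from 179 to 193 over 14 regions (log2 0.11, 0.064 to 0.15), with 8 of the 13 shared ones higher. Of all 79496 shared regions, 39768 were higher. Per kb of peak the sums differed by log2 -0.12, -0.096, -0.030 and 0.0093 in the order A to D, while the median of all genes per kb was -0.060. Scaling to tags in peaks, which lowers each log2 ratio by 0.125, puts the HoxD sum under 0 as well.

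Hox genes of each cluster showed the same sides. Hoxa9, a well-known Mll1 target in blood cells, stood at 83.5 tags per M without and 72.0 with 4-OHT (log2 -0.21, -0.28 to -0.14). Hoxa11 had 37.3 and 29.9 (log2 -0.32), and Hoxb1, the lowest of the 39, had 15.1 and 11.4 (log2 -0.40, -0.57 to -0.23). On the other side, Hoxd10 had 25.2 and 30.3 (log2 0.27) and Hoxd11 31.5 and 37.1. Hoxc9, at 12.7 and 15.2, was high for its cluster. Of the Hox cofactors and other Mll1 targets, 4 of 12 lay above the median of all genes, with Meis1 at 97.7 and 98.7 and Meis2 at 112 and 124.

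Most of the other developmental groups stood near or just under the median of all genes. Above that median were 5 of 15 neural precursor genes, 4 of 14 of primitive streak and mesoderm, 4 of 9 of primitive endoderm, 4 of 12 of trophectoderm and 6 of 15 of the germline, with list medians between -0.059 for trophectoderm and -0.031 for neural genes. Per kb of peak the counts were 8, 6, 6, 5 and 6 in the same order. Neurog1, a factor of early neurons, had 18.3 tags per M and then 14.5 (log2 -0.34). Wnt3 had 31.0 and 26.0, and Cdx2, the trophectoderm factor, 54.3 and 47.2. On the other side, Gata3 of the same list had 23.0 and 32.1 (log2 0.48) and Tbx6 of the mesoderm 16.8 and 21.3. None of the genes in these 5 groups reached 1.5-fold. In the blood and endothelium group the endothelial cadherin Cdh5 did, with 7.34 and 4.67 tags per M (log2 -0.65). The mesenchyme and fibroblast list was on the other side, with 6 of 9 genes above the median of all genes (list median 0.028). Per kb of peak 9 of its 9 genes were above the all-gene median.

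**Figure D3:**
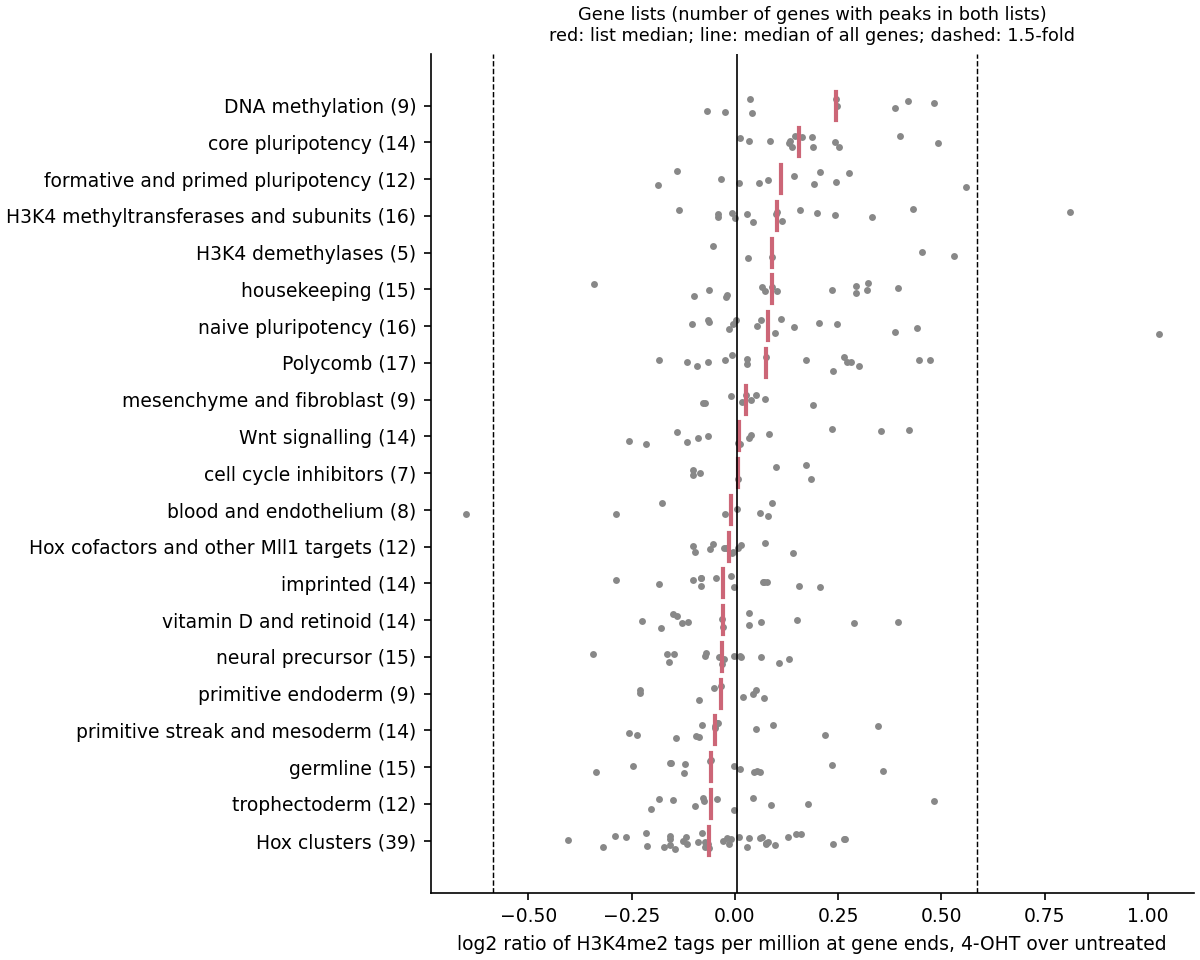
Log2 ratio of H3K4me2 tags per M at gene ends, 4-OHT over untreated, for the genes of 21 lists (grey points, 1 per gene with peaks in both lists; number in brackets). Red bars are list medians, from 0.24 for DNA methylation (-0.047 per kb of peak) to -0.063 for the Hox clusters; the solid line is the median of all genes and the dashed lines mark 1.5-fold.

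Among the writers and erasers of H3K4 methylation, several genes had more H3K4me2 after 4-OHT while Kmt2a did not. Of 16 methyltransferases and subunits, 11 lay above the all-gene median (list median 0.10). Dpy30, the subunit shared by all these complexes, had 12 and 21.1 tags per M (log2 0.81, 0.65 to 0.97), the only one past 1.5-fold, but with peaks within 1 kb of each other joined its log2 ratio was 0.35, under that fold. Kmt2b, the closest relative of Kmt2a, had 56.0 and 75.5 (log2 0.43), and Rbbp5 77.4 and 97.4. Kmt2c was lower, with 49.8 and 45.3, and Men1, which tethers Mll1, had 44.2 and 43.0. The demethylases Kdm1a and Kdm5b were higher, with 65.3 and 94.3 (log2 0.53) and with 122 and 167 (log2 0.45). Of 5 demethylases 4 lay above the all-gene median, and the lowest stood at log2 -0.052. Per kb of peak 3 of 5 did, with a list median of -0.058 against -0.060 for all genes.

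Polycomb and DNA methylation genes were also more often above the median of all genes than under it. Of 17 Polycomb genes with peaks in both lists, 11 lay above the all-gene median (list median 0.075). Rnf2, the ubiquitin ligase of Polycomb complex 1, had 60.6 and 84.0 tags per M and its partner Rybp 198 and 270. Cbx8 was lower with 54.9 and 48.3. Of 9 DNA methylation genes 7 lay above the all-gene median, with the list median at 0.24, but per kb of peak 5 of 9 did, with a median of -0.047 against -0.060 for all genes. Tet1, the main methylcytosine oxidase of stem cells, had 299 and 418 tags per M (log2 0.48, 0.45 to 0.52), its untreated domain of 5 peaks being 1 peak after 4-OHT. Hells, a chromatin remodeller, had 66.8 and 89.2. As a comparison, 10 of 15 housekeeping genes lay above the all-gene median, with a list median of 0.090 that is above that of the Polycomb list.

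The genes with the most extreme ratios had weak peaks. Among genes with at least 100 tags in the higher library, Cryba1 had the highest ratio, from 1.5 to 7.16 tags per M and from 1222 to 4390 bp (log2 2.26, 1.86 to 2.68). Ikbke, a kinase of innate immunity, had 1.22 and 3.81 tags per M. Il12rb2, a cytokine receptor chain, was the strongest of the 10, with 6.47 and 18.9 tags per M, but its width went from 1670 to 9816 bp and its ratio per kb was -1.01. Gm5767, Cyp2b23, Hint3, Slc7a3 and Ccl1 were also among the 10. With peaks within 1 kb of each other joined, Cryba1 (log2 0.44), Il12rb2 (0.32) and Slc7a3 (0.48) were under 1.5-fold. The lowest ratio was that of Myl3, from 6.97 to 1.69 tags per M and from 3598 to 1203 bp (log2 -2.05, -2.42 to -1.69). It was followed by Odf3l1 (3.62 and 1.11), Phactr1 (3.05 and 0.947) and Pth1r, the parathyroid hormone receptor (2.72 and 0.885), and then by Rab44, 1700042G07Rik, Cep295nl, Fam71a, Birc7 and Tspear. Per kb of peak the ratios of these 10 lay between -0.65 and -0.12. With peaks joined, Pth1r (log2 -0.21) and 1700042G07Rik (-0.14) were no longer 1.5-fold lower and Rab44 stood at -0.59, while Myl3, Odf3l1 and Phactr1 kept their values.

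A small number of genes had H3K4me2 at an end in 1 list only. The 4-OHT list alone held 170 genes, 1.05% of its genes, and the untreated list alone 102, 0.633%. Fcer1g led the first set with 245 tags in 3 peaks (5.04 tags per M), followed by Pus10 (4.84), Lrrtm2 (4.4), Scrg1 (4.36) and Cd180 (3.83), and then 1700093K21Rik, Gm52140, Cyb5r3, Srgn and Asmt. Of these 10, 9 overlapped an H3K4me1 peak in untreated cells and 1, Asmt, an H3K4me3 peak. Of the 102, Jarid2, Elobl and Coil stood far above the rest, with 192, 40.4 and 29.1 tags per M in untreated cells. The next were Alpk2 (3.27), 4921528I07Rik (2.22) and Atp2c1 (2.07), and the last 4 were F10, Igfn1, Col10a1 and Gucy2c.

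The strong untreated-only regions fell into a few blocks. Only 15 untreated-only regions held 200 tags or more, in 5 blocks, and each of the 15 overlapped an H3K4me3 peak of the 4-OHT culture and an H3K4me2 peak of the MM-401 culture. At Jarid2 (chr13:44727709-44816557) the untreated list had 6 peaks over 86771 bp with 12029 tags, 300 per M, and the 4-OHT H3K4me2 list had none. The 4-OHT H3K4me3 list had 6 peaks over 83811 bp there with 516 tags per M, and the MM-401 H3K4me2 list 7 peaks. Neither H3K4me1 list covered more than 2458 bp of the block. Within Kat6b (chr14:21546600-21588109), which encodes an acetyltransferase, the untreated list covered 33885 bp with 68.2 tags per M and the 4-OHT list nothing, while 4-OHT H3K4me3 covered 17233 bp in 7 peaks. At Elobl and Coil (chr11:88966296-88978769) 69.5 tags per M of H3K4me2 stood against none, and 4-OHT H3K4me3 held 102 in 2 peaks. The block on chromosome 17 (chr17:39842501-39849354) spans Rn18s-rs5, a ribosomal RNA pseudogene, with 231 tags per M of untreated H3K4me2, no 4-OHT H3K4me2 peak, and 305 in 4-OHT H3K4me3. The fifth block, near Tra2a (chr6:49236001-49238718), was smaller, with 7.84 tags per M.

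**Figure D4:**
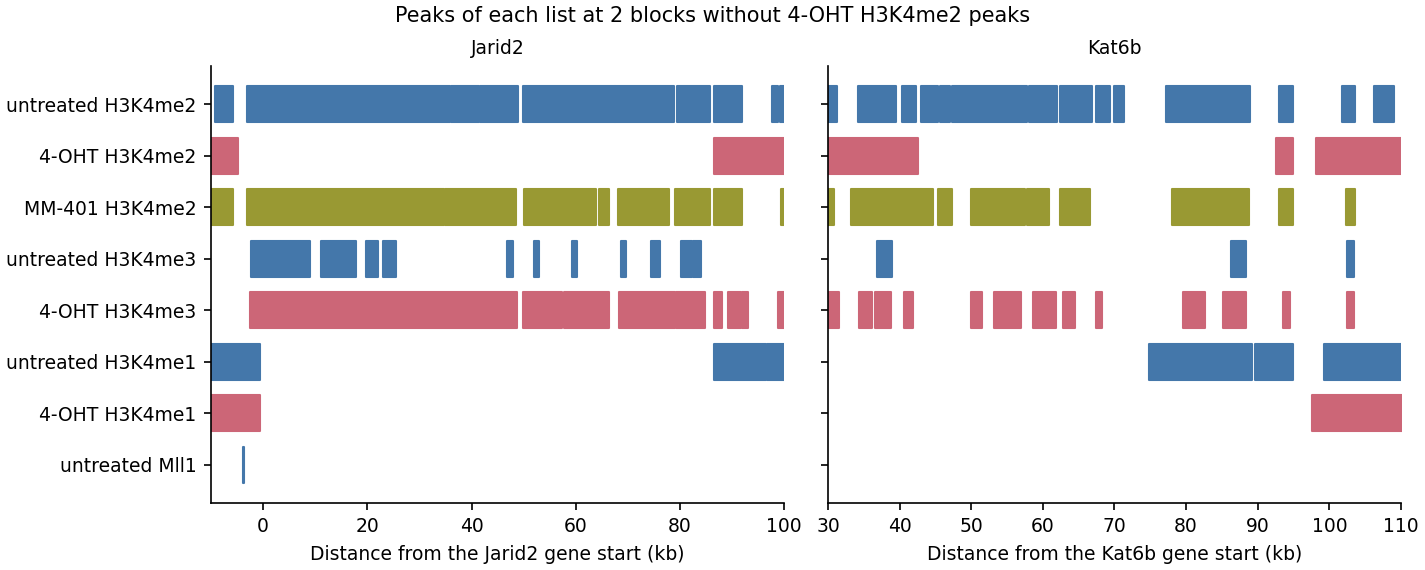
Peaks of 8 lists (1 row per list) by distance in kb from the gene start at Jarid2 (left) and Kat6b (right); bars span the called peaks. The 4-OHT H3K4me2 row has no peak over the Jarid2 start or over the middle of the Kat6b window, where untreated and MM-401 H3K4me2 and 4-OHT H3K4me3 do.

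Strong regions of 1 list only occurred in the opposite direction as well. Of the 4-OHT-only regions, 2 held at least 1000 tags. Within Tmem51 (chr4:142059370-142078992) the 4-OHT list had a peak of 19623 bp with 95.4 tags per M and the untreated H3K4me2 list none, although untreated H3K4me1 covered 19532 bp with 123 tags per M. The other, near Ly6c2 (chr15:75085220-75087177), had 33.1 tags per M after 4-OHT, no H3K4me1 in either culture, and 46.8 in the Mll1 list of untreated cells. The absence of a peak in such a block is therefore stated only for the list named. Whether the reads are absent there was not tested.

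Regions that were wide in the 4-OHT list only formed a further group. At 136 regions the untreated H3K4me2 covered under 2.5 kb or was absent and the 4-OHT peaks covered 5 kb or more. The reverse was found at 11 regions, all of them without any 4-OHT peak. In all, 6640 regions were 5 kb or wider after 4-OHT and 5310 in untreated cells. Of the 136, 101 had an untreated peak, of median 1747 bp, and 83 lay over 10 kb from any gene end, but 127 lay over a gene. Their median 4-OHT width was 5781 bp, and the median level went from 2.03 to 10.7 tags per M over all 136, while per kb of peak the 101 shared ones differed by a median log2 of 0.23.

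Most of these domains overlapped broad H3K4me1 in untreated cells. Widths here are summed over all peaks of a list that overlap the site. Peaks of untreated H3K4me1 overlapped 133 of the 136, and their width was 5 kb or more at 102. After 4-OHT, H3K4me1 peaks overlapped 109, with a width of 5 kb or more at all of them. The other 27 had no H3K4me1 peak in that list, although their untreated H3K4me1 width reached 57679 bp. Whether the reads are absent there was not tested. At the sites with an H3K4me1 peak its median width was 6237 bp in untreated cells and 17017 bp after 4-OHT. The median levels were 12.7 and 39.3 tags per M, so H3K4me1 differed at these sites as well. H3K4me3 peaks, of median width 1087 and 1381 bp, overlapped 21 sites in untreated cells and 52 after 4-OHT. Mll1 peaks overlapped 4. The MM-401 H3K4me2 list had a peak at 54 of the sites, with a width of 5 kb or more at 3. Among all shared regions, untreated and 4-OHT H3K4me1 overlapped 87.5% and 90.0%, and H3K4me3 59.2% and 61.6%. Mll1 overlapped 3.2% of all shared regions and MM-401 H3K4me2 70.4%. How often H3K4me1 was broad at other wide regions was not examined.

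**Figure D5:**
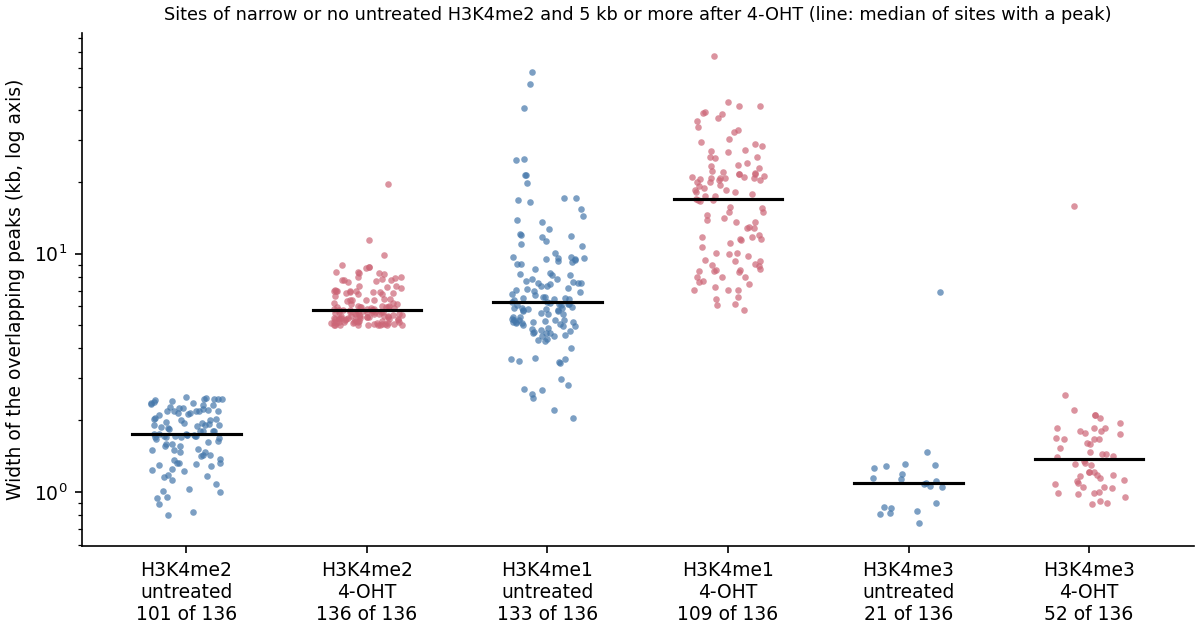
Summed width of the overlapping peaks of each list (kb, log axis) at the 136 regions. These had narrow or no H3K4me2 in untreated cells and 5 kb or more after 4-OHT. Each point is a site with a peak, black bars are medians, and the axis labels give the number of sites with a peak. The widths of H3K4me2 chose the sites. Untreated H3K4me1 is already broad at most of them, and its median among sites with a peak is wider after 4-OHT. H3K4me3 peaks are narrow in both cultures.

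The distal regions with the highest ratios belonged to this group. Inside Tlk2, a kinase of chromatin replication (chr11:105199537-105207497, 31.6 kb from the nearest gene end), H3K4me2 went from 0.999 to 14.1 tags per M and from 952 to 7961 bp (log2 3.82, 3.36 to 4.32). Inside Cdyl2 (chr8:116649289-116656579) it went from 0.899 to 11.3, and inside Huwe1, a ubiquitin ligase (chrX:151828804-151834484), from 0.774 to 9.10. Regions inside Scaf4 (1.87 and 17.8) and Tcf20 (1.72 and 15.1) came next. The highest level among the 136 with a peak in both lists was near an end of the zinc finger gene Zfp992 (chr4:146452187-146460446), with 2.32 and 28.4 tags per M. At the pluripotency gene Zfp42 a region (chr8:43291645-43297983) went from 6.22 to 13.8 tags per M and from 2261 to 6339 bp. Per kb of peak its log2 ratio was -0.33.

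The distal regions with the lowest ratios were narrow after 4-OHT. The lowest ratio, 167 kb from Ajap1 (chr4:153650693-153654405), was 5.72 to 0.782 tags per M and 3713 to 736 bp (log2 -2.87, -3.41 to -2.37). A region inside Snx10 (chr6:51572818-51576263) had 5.29 and 0.844. Regions near Helt (3.62 and 0.762), Tex35 (3.35 and 0.720) and inside Sh3rf1 (3.02 and 0.700) followed. All 5 overlapped H3K4me1 in both cultures. Of all shared regions over 10 kb from a gene end, 82.4% did in untreated cells and 85.3% after 4-OHT. Beside the Ly6c2 region, the distal regions of the 4-OHT list only with most tags lay near Stmn2 (15.1 tags per M), inside Zfp618 (12.1), near Axin2 (11.4) and inside Enah (11.3), and those near Stmn2 and Axin2 overlapped Mll1 peaks of untreated cells.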

How the data were processed

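Peak lists of 1 untreated and 1 4-OHT H3K4me2 library were compared. Per the file headers the authors called peaks with MACS 1.4.2 against an input of the same culture (p cutoff 1e-05) after removing duplicate tags, and the submitters' processing notes name Bowtie2, SAMtools 1.5, MACS2 and mm10. The headers were followed for the caller. The deposited counts are tags per peak; the deposited score is -10 log10 of the p. The deposited fold enrichment was not used, and the false discovery rate, deposited as a percent, served in 1 alternative. Width is the deposited length in bp.

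Lists were merged by 1 bp overlap with Python 3.11.15 and pandas 2.3.3; tags and widths were summed per region, and tags were divided by the filtered tags of the headers in units of 1000000 (M). The H3K4me1 and H3K4me3 lists of the MM-401 culture were not used here. Distances are to the outermost ends of the 21631 protein-coding genes of GRCm38.p6 on the autosomes and X, so start sites inside a gene are not counted. Tags come from whole peaks, and where a peak covers neighbouring genes both get its tags. Intervals are exact: Clopper-Pearson for shares, Poisson conditional for ratios; a library without replicates allows no p-value. The merging and ratios were tested on simulated lists. Members and the 21 gene lists (302 genes, Kdm5d on Y not analysed) were chosen with earlier results of these data known. All list genes could be named, and besides them the 10 highest and 10 lowest ratios with at least 100 tags, the 10 strongest genes of each list alone, and 5 distal regions of each kind. The strong blocks, the wide sites and the Hox clusters taken singly were singled out after their values were seen. Alternatives covered scaling, score, list length, joining, overlap, minimum tags, distance and tags per kb. Some genes that this rule names are not reported here.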

Additional observations from a re-analysis of the deposited data

How the results depend on the processing

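The excess of 4-OHT-only over untreated-only regions held under all the alternatives run for those counts. A score of at least 100 gave 3811 untreated-only regions, lists of equal number gave 8654 and 11756 4-OHT-only regions, and at least 50 tags in the higher library gave 2339 and 11934. The 2-fold higher and lower counts were 1506 and 330 at a score of at least 100; the lower count was 529 with equal lists and 1377 with scaling to tags in peaks. Per kb of peak they were 11 and 14, and the lower one was then the larger. The median log2 ratios stayed within 0.13 of 0. At gene ends the median was -0.13 with tags in peaks, 0.0039 with peaks within 1 kb joined, -0.014 with 1 peak of each list and -0.047 per kb. Away from gene ends it was -0.13 with tags in peaks, 0.015 with equal lists, -0.011 with peaks joined, -0.013 with 1 peak of each list, 0.013 with at least 50 tags, -0.0077 per kb and -0.023 from 50 kb. The median log2 width ratio was 0.021 at a score of at least 100, 0.023 with equal lists, 0.016 with peaks joined, 0.012 with 1 peak of each list and 0.023 with at least 50 tags. Of 357 list and gene values under the alternatives, 281 stayed inside the interval of the reported value, 74 moved outside it, and 2 that were past 1.5-fold changed sign, Il12rb2 (-1.01) and Esrrb (-0.14), both per kb of peak. Values nearer 0 also changed sign. Scaling to tags in peaks put Nanog at -0.090 and the medians of the naive (-0.045), formative (-0.013), H3K4 methyltransferase (-0.023), demethylase (-0.034), Polycomb (-0.049), housekeeping (-0.035), mesenchyme (-0.097), Wnt (-0.11) and cell cycle inhibitor (-0.12) lists under 0, with all genes at -0.12. Per kb of peak the naive (-0.012), demethylase (-0.058), DNA methylation (-0.047), Wnt (-0.031), cell cycle inhibitor (-0.029) and housekeeping (-0.055) medians were under 0, with all genes at -0.060, and with peaks joined Kmt2a stood at 0.0035. Joining took Cryba1, Il12rb2, Slc7a3, Pth1r, 1700042G07Rik and Dpy30 under 1.5-fold; these checks of lists and genes were chosen after seeing the data. Relative to all genes, the core pluripotency list kept a median log2 ratio 0.15 to 0.16 higher, and that of the Hox list was lower (-0.076 to -0.015, the latter per kb). The core pluripotency median itself was 0.030 with scaling to tags in peaks. Where no value above shows it, the cause was not tested. No paired analysis was possible because each culture has 1 library.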

Other observations

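The share of 4-OHT regions without an untreated H3K4me2 peak was similar along the genome. On the autosomes it ran from 16.1% on chromosome 10 to 20.2% on chromosome 16, and on X it was 21.3% (19.6 to 23.1%). The X chromosome did not stand out for untreated-only regions, with 6.47% against 5.73 to 7.94% on the autosomes, and its shared regions had a median log2 ratio of 0.033.

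Genes of vitamin A and D signalling, of Wnt signalling and of imprinting were spread on both sides of the all-gene median. Rarg, a retinoic acid receptor, had 151 and 185 tags per M and Rara 28.1 and 36.9, while Crabp1, which binds retinoic acid, was lower (29.3 in untreated cells, log2 -0.23). Ctnnb1, which encodes beta-catenin, had 75.5 and 101, and Sfrp1, a secreted Wnt inhibitor, 47.3 and 40.8. Of the imprinted genes with peaks in both lists, 5 of 14 lay above the median of all genes, with Mest at 8.31 and 6.81 and Grb10 at 21.2 and 24.5. Of the cell cycle inhibitors 4 of 7 did, and Cdkn2b had 21.9 and 24.6.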
